A study of Mus musculus with 4 samples.

Results

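Nnat, Fez1, Astn1, Arl4c, Begain, Chrna4, Fam5b and Ankrd33b are 8 of the 21828 mouse genes measured in the Hes1 reporter-sorted retina, and they were chosen by their own values. The rule took genes whose level was more than 2-fold lower in EGFP-positive than in EGFP-negative cells at postnatal day 1 (P1) and, at P4, more than 2-fold above it. The fold was read as a difference of log2(FPKM + 1) below -1 at P1 and above 1 at P4, and the pseudocount of 1 makes the differences of low genes smaller than their plain ratios. FPKM, fragments per kilobase of transcript scaled to the mapped fragments of the library, is a level per length of transcript, so it can also be compared between genes. The exchange of sides between the ages is therefore how these genes were selected, and it is described here without a test.

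The rule did not hold equally well for all of them. For 7 of the 8 genes Cufflinks gave an estimate with status OK in every library. Ankrd33b met the rule only through an FPKM listed at 0 in the EGFP-negative cells of P4, and that line carries the status FAIL, as 1 of 40 such lines over the 4 tables, all of which list 0. An FPKM of 0 with this status is a failed estimate and not a measured absence. The P4 difference of Ankrd33b therefore has no meaning, and the gene is not counted below unless it is named.

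The libraries came from retinas of FVB/N mice at P1 or P4, kept under specific-pathogen-free conditions with no treatment. All animals carried a transgene in which a fragment of the Hes1 promoter drives destabilized EGFP, and cells were separated by EGFP into a positive fraction (pHes1_EPC) and a negative one (pHes1_ENC). The marker is a promoter fragment and not the endogenous gene, and the number of mice pooled for a library is not given in the sources used here. There were 4 libraries, 1 for each fraction at each age, so the spread between animals and between sorts is unknown, and the differences below are given without p-values.

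In the newborn retina, progenitors with active Notch signaling express Hes1 and Hes5, repressors of neurogenic factors such as Neurog2. As cells leave the cycle, those that become neurons pass through a short state with neurogenic factors and Notch ligands. They then differentiate as amacrine cells, rods or bipolar cells. Müller glia arise from the same progenitors and keep Hes1. The 8 genes are known mostly from neurons. Fez1 is an adaptor that links cargo to the kinesin-1 motor in axons, and Astn1 encodes astrotactin, a membrane protein of migrating neurons. Fam5b, also named Brinp2, encodes a neural secreted protein induced by retinoic acid in culture. Nnat encodes neuronatin, a small membrane proteolipid of the endoplasmic reticulum that is imprinted and is expressed from the paternal allele. Arl4c is a small GTPase of the Arf-like family, Begain a protein of the postsynaptic density, Chrna4 the alpha4 subunit of neuronal nicotinic acetylcholine receptors, and Ankrd33b an ankyrin repeat protein.

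In NCBI37/mm9, the build of the files, Nnat lies on the plus strand at chr2:157385846-157388255, with 3 exons in its longest coding transcript, and inside the span of Blcap, which runs on the minus strand at chr2:157382098-157392097. The sources used here do not state that strand was kept, so reads from unspliced Blcap and from Nnat cannot be told apart. Another annotated gene, AL672259.1, shares exon bases with Nnat, and its part in the reads of Nnat was not tested. Fez1 lies at chr9:36651244-36686225 on the plus strand (10 exons), Begain at chr12:110270392-110306427 on the minus strand (7 exons), and Chrna4 at chr2:180757016-180773882 on the minus strand (6 exons). Arl4c lies at chr1:90594801-90598766 on the minus strand and has 1 exon, and Ankrd33b lies at chr15:31221235-31297514 on the minus strand (4 exons). Fam5b and Astn1 are neighbors on chromosome 1. Fam5b runs to the left from chr1:160175400-160286391 (minus strand, 8 exons) and Astn1 to the right from chr1:160292435-160621917 (plus strand, 23 exons), and their starts are 6044 bases apart.

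Promoters were read from the RefSeq table for GRCm38.p6, as the 250 bases before and 50 bases after each start, on the strand of the gene. The table held a promoter for 7 of the 8 genes, all except Fam5b, and 13 promoters in all. Those of Nnat (chr2:157559828-157560127, plus strand), Astn1 (chr1:158362054-158362353, plus strand), Arl4c (chr1:88702142-88702441, minus strand) and Chrna4 (chr2:181039128-181039427, minus strand) are shown, because each of these genes had estimates in every library and 1 promoter only. Capitals mark matches, on either strand, to the motifs named after them.
Nnat: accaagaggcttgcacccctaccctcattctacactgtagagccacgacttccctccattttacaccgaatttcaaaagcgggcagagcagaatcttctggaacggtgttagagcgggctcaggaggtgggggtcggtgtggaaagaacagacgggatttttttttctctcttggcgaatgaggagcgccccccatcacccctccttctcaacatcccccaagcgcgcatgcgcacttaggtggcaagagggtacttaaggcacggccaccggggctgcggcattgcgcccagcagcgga
Astn1: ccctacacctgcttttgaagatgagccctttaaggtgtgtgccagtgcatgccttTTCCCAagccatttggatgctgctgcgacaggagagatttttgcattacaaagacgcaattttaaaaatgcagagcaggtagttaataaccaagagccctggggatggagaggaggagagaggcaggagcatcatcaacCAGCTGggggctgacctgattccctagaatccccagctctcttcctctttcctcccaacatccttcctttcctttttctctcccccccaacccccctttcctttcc
Arl4c: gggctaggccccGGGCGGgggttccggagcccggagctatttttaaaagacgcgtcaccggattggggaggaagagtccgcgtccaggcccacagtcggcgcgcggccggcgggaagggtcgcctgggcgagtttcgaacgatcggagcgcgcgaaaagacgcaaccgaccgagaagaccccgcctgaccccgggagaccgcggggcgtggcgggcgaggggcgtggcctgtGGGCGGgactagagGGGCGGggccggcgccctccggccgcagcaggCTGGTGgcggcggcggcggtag
Chrna4: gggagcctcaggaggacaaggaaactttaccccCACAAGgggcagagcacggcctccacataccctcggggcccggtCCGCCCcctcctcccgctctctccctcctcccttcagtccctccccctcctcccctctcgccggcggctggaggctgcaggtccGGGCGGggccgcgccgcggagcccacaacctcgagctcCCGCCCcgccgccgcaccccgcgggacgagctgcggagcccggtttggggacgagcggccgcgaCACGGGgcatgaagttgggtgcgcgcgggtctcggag

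These starts did not look alike. GC content was 74% for Arl4c and 74.3% for Chrna4, 57.3% for Nnat and 50.7% for Astn1, against a median of 52.7% over the 32851 promoters of the table. The motifs searched on both strands were the E-box CAGCTG, the N-box CACNAG and the class C site CACGNG of Hes-type repressors (the last 2 share the letters CACGAG), the Rbpj site TGGGAA, the Crx site TAATCC, the RE1 parts CAGCACC and GGACAG, the GC box GGGCGG and the TATA box TATAAA. Nnat held none of them. Astn1 held the E-box at -56 and the Rbpj letters at -195, counted from the start, and Arl4c and Chrna4 held 3 GC boxes and 1 N-box each. The N-box was at 29 in Arl4c and at -217 in Chrna4, which also held the class C site at 14.

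No motif was in the promoters of all 7 genes. The E-box was in 2 of the 7 genes, the N-box in 5, the class C site in 3, the Rbpj site in 3, the Crx site in 2, the left RE1 part in 1, the right RE1 part in 2, the GC box in 5 and the TATA box in 1. Over all promoters of the table, 16.3% held the E-box, 42.5% the N-box, 27.5% the class C site, 25.6% the Rbpj site, 7.06% the Crx site, 7.14% and 22.2% the left and right RE1 part, 35.7% the GC box and 13.6% the TATA box. Only 5 of the 7 genes have 1 promoter, and the counts take any promoter of a gene, so Fez1 and Begain had more places to match than an average entry of the table. A match of letters is a description and not a binding site.

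Nnat had the highest FPKM of the 8 genes in every library. At P1 it measured 1010 in pHes1_ENC and 300.4 in pHes1_EPC, and at P4 289 in pHes1_ENC and 1067 in pHes1_EPC. The values thus formed pairs, high in P1 pHes1_ENC and P4 pHes1_EPC and low in the other two libraries. The ratio of pHes1_ENC to pHes1_EPC was 3.36 at P1 (3.22 to 3.54 from the limits of the Cufflinks 95% intervals), and that of pHes1_EPC to pHes1_ENC was 3.70 at P4 (3.55 to 3.89). These ranges cover the error of the estimate within a library and nothing of the error between animals or sorts. In a sorted fraction, fewer cells that express a gene and less RNA of it in each cell cannot be told apart.

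Blcap, the gene on the other strand around Nnat, did not take part in the exchange. It measured 43.5 and 20.6 FPKM in pHes1_ENC and pHes1_EPC at P1, and 41.2 and 37.9 FPKM at P4. The difference of log2(FPKM + 1), pHes1_EPC minus pHes1_ENC, was -1.04 at P1 and -0.12 at P4 for Blcap, against -1.75 and 1.88 for Nnat.

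Fez1, the kinesin adaptor, had an FPKM of 43.8 in pHes1_ENC and 18.3 in pHes1_EPC at P1, followed by 9.25 in pHes1_ENC and 42.2 in pHes1_EPC at P4. As listed, its highest values in the positive and negative fractions were nearly equal, at a ratio of 0.963. Under the 3 other scalings tried this ratio was 0.718 to 0.821. Its P4 ratio of pHes1_EPC to pHes1_ENC, 4.56 (3.50 to 5.68), was the largest of the 7 genes. For Fez1 the FPKM lay outside its own interval in 3 libraries (all but P4 pHes1_ENC), the only such cases among the 28 values of the 7 genes, so its intervals are less dependable than the others.

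Astn1 measured 16.6 and 7.52 in pHes1_ENC and pHes1_EPC at P1, and 5.59 and 13.2 at P4. Its neighbor Fam5b measured 9.29 and 2.92 at P1, and 4.10 and 15.9 at P4. Both genes exchanged sides, Astn1 with a ratio of 2.21 (1.99 to 2.48) at P1 followed by 2.36 (2.09 to 2.68) at P4, and Fam5b with 3.18 (2.52 to 3.93) followed by 3.89 (3.20 to 4.60). Astn1 was nearest of the 7 genes to the threshold at both ages.

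Arl4c, the small GTPase, had an FPKM of 17.8 in P1 pHes1_ENC and 6.53 in P1 pHes1_EPC, and of 2.71 and 8.73 at P4. Begain measured 12.0 and 4.74 at P1, and 2.65 and 8.85 at P4. Chrna4 had 13.1 and 4.71 at P1, and 3.04 and 8.06 at P4. These 3 genes shared a shape, in which P1 pHes1_ENC was the highest of the libraries and P4 pHes1_ENC the lowest, as they also were for Fez1 and Astn1.

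Over the 7 genes the P1 ratio of pHes1_ENC to pHes1_EPC ran from 2.21 to 3.36 (median 2.73), and the P4 ratio of pHes1_EPC to pHes1_ENC from 2.36 to 4.56 (median 3.35). The intervals of the fractions did not overlap at either age for any of the 7 genes. The interval reached from 1.65% of the FPKM on either side, for Nnat in P4 pHes1_EPC, to 18.6%, for Begain in P4 pHes1_ENC. Intervals of this width would arise from about 115 to 14654 counted reads if they held counting error only.

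For Ankrd33b the 3 estimated values were 74.8 in P1 pHes1_ENC, 3.40 in P1 pHes1_EPC and 20.1 in P4 pHes1_EPC. Its P1 ratio of pHes1_ENC to pHes1_EPC, 22.0 (19.7 to 25.3), was the largest of the 8 genes, and within pHes1_EPC the P4 level was 5.90 times the P1 level (5.12 to 6.89). Whether pHes1_ENC held less or more of it than pHes1_EPC at P4 is not known from these values.

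**Figure D1:**
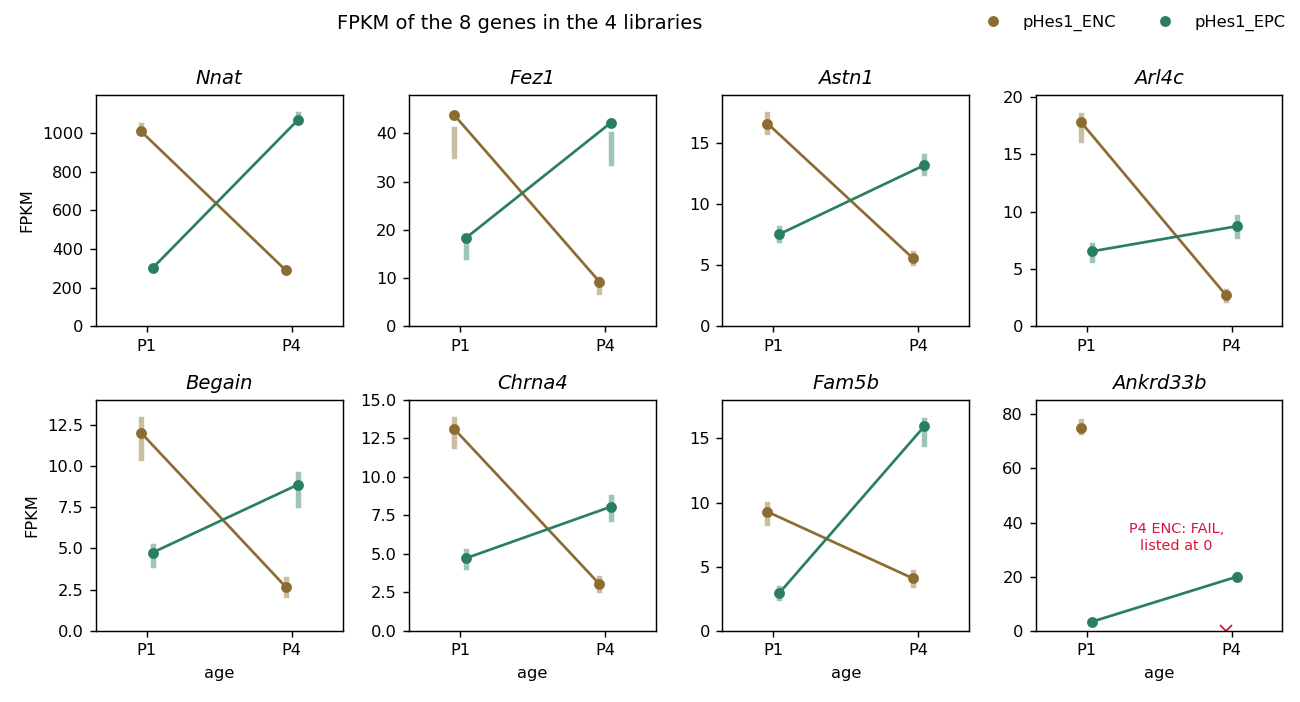
FPKM (linear axis from 0, its own scale in each panel) of the 8 genes at P1 and P4 in pHes1_ENC (brown) and pHes1_EPC (green); points are the single libraries and pale bars the Cufflinks 95% intervals. The lines cross in the 7 panels with 4 estimates, while the red cross of Ankrd33b marks the failed estimate listed at 0.

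As listed in the tables, all 8 genes met the rule, as did 19 others, so that 27 of the 21828 genes (0.124%) met it. At P1 alone 6.79% of genes were more than 2-fold lower in pHes1_EPC, and at P4 alone 9.85% were more than 2-fold higher. The opposite exchange, higher in pHes1_EPC at P1 and lower at P4, was seen for 3 genes (0.0137%). These were Kirrel, whose FPKM of 0 in P1 pHes1_ENC and in P4 pHes1_EPC are failed estimates, A730008H23Rik and Klf9. Klf9, a Krüppel-like transcription factor, measured 4.97 and 13.3 in pHes1_ENC and pHes1_EPC at P1, and 17.0 and 7.51 at P4.

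**Figure D2:**
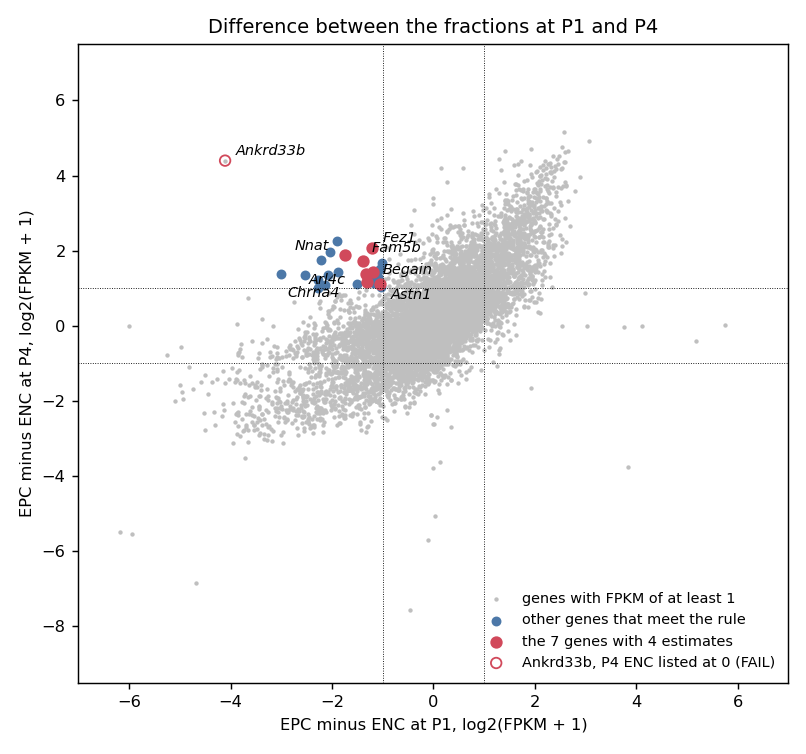
Difference of log2(FPKM + 1), pHes1_EPC minus pHes1_ENC, at P1 (horizontal axis) and P4 (vertical axis) for genes whose highest FPKM was at least 1; dotted lines stand at -1 and 1. The 7 genes with 4 estimates (red) and the 19 others that meet the rule (blue) lie in the upper left field, and the open circle of Ankrd33b rests on a failed estimate.

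Close to the thresholds the choice between in and out turned on small differences. At P1 the genes just inside were Dpysl4 (-1.02), Hunk (-1.03) and Astn1 (-1.05), and those just outside were Grb14 (-0.96), Pax6 (-0.95) and Tmem44 (-0.90). At P4 Flrt3 (1.02), Hunk (1.04) and 4833424O15Rik (1.08) were just inside, and Dner (0.89) and Kcnip3 (0.88) were among those just outside. Astn1 fell below 1 at P4 under each of the 3 other scalings tried (0.84 to 0.94), and Chrna4 under 2 of them.

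The rule fixes that the change from P1 to P4 in pHes1_EPC exceeds that in pHes1_ENC by more than 2 on the log2 scale. It does not fix how that difference divides between a fall in the negative fraction and a rise in the positive one. Over the 12941 genes that reached an FPKM of 1 in any library, the median change was -0.01 in pHes1_ENC and 0.17 in pHes1_EPC, and the medians of pHes1_EPC minus pHes1_ENC were 0.02 (P1) and 0.15 (P4). As only Ankrd33b lacked an estimate, the division could be described for the other 7 genes.

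In pHes1_ENC all 7 genes were more than 2-fold lower at P4 than at P1 on the log2(FPKM + 1) scale, against 5.94% of all genes. After quantile normalization 6 were, without Fam5b (-0.83). The rule used these same values and requires a change past 1 in size in at least 1 fraction. Shares of all genes are therefore given for scale, here and for pHes1_EPC, and the contrast is not a test. The genes so counted, 1297 falling in pHes1_ENC and 911 rising in pHes1_EPC, were all among the 12941 that reached an FPKM of 1. The P4 level was from 0.152 (Arl4c) to 0.442 (Fam5b) of the P1 level, with a median of 0.232. Arl4c fell by 2.34 on the log2(FPKM + 1) scale, Fez1 by 2.13, and Begain, Nnat and Chrna4 by 1.84, 1.80 and 1.80. The smallest falls were those of the neighbors Astn1 (1.42) and Fam5b (1.01).

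The rise in pHes1_EPC was less even. All 7 genes were higher at P4 than at P1 there, also under every scaling tried, but only Fam5b (2.11), Nnat (1.83) and Fez1 (1.16) rose by more than 1, against 4.17% of all genes, and Fez1 no longer did so under the 3 other scalings. Begain (0.78), Astn1 (0.73), Chrna4 (0.67) and Arl4c (0.37) had smaller differences. Relative to the median gene in pHes1_EPC the differences were 1.94 for Fam5b, 1.65 for Nnat, 0.99 for Fez1, 0.61 for Begain, 0.56 for Astn1, 0.49 for Chrna4 and 0.19 for Arl4c. In plain ratios the P4 level in pHes1_EPC was from 1.34 (1.10 to 1.65) times the P1 level for Arl4c to 5.45 (4.38 to 6.54) times for Fam5b, with a median of 1.87.

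The change was larger in pHes1_ENC for 5 of the 7 genes and larger in pHes1_EPC for Nnat and Fam5b, and relative to the median gene, or under each of the 3 other scalings, it was larger in pHes1_ENC for 6. The fall in pHes1_ENC made up from 32.4% (Fam5b) to 86.4% (Arl4c) of the total move of the difference between the fractions, with a median of 65.9%. For Nnat its share was 49.7%, so that the fall and the rise were of nearly equal size.

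**Figure D3:**
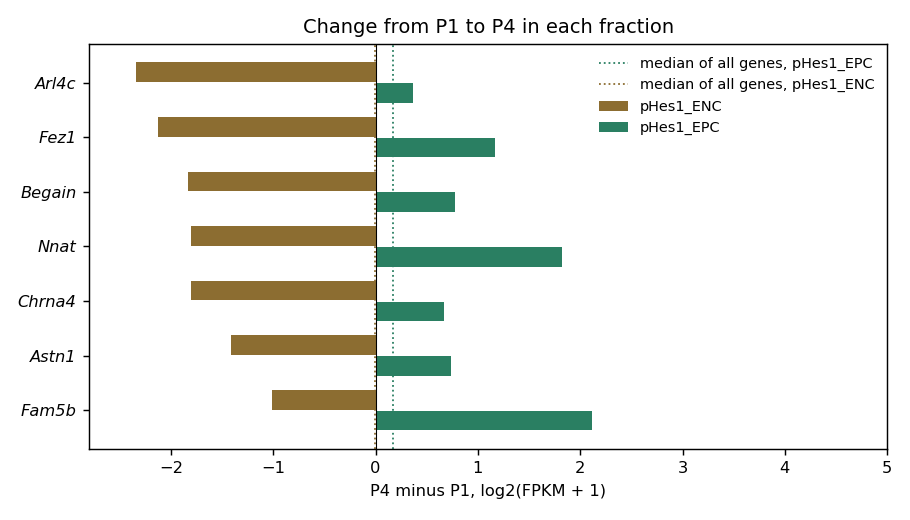
Change of log2(FPKM + 1) from P1 to P4 in pHes1_ENC (brown bars) and pHes1_EPC (green bars) for the 7 genes with 4 estimates, ordered by the change in pHes1_ENC; dotted lines are the medians of all genes that reached an FPKM of 1 (-0.01 and 0.17). All brown bars lie below -1, and the green bars reach from 0.37 (Arl4c) to 2.11 (Fam5b).

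The levels also did not simply change places. In P4 pHes1_EPC, Fam5b stood at 1.72 (1.47 to 1.97) times its level in P1 pHes1_ENC and Arl4c at 0.490 (0.425 to 0.588) of it. Nnat stood at 1.06 (1.02 to 1.09) times that level, but its direction turned under each of the 3 other scalings, to ratios of 0.765 to 0.900. The other 4 genes lay from 0.615 for Chrna4 to 0.963 for Fez1, and each was lower under all 3 other scalings. At the low end, P4 pHes1_ENC was below P1 pHes1_EPC for 6 of the 7 genes, with intervals that did not overlap for 5. Fam5b was the exception, with 1.40 (1.08 to 1.81) times the P1 pHes1_EPC level in P4 pHes1_ENC.

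None of the nearest genes on either side of the pair on chromosome 1 met the rule. Only 0.124% of all genes met it, so this says little about the stretch. Pappa2 and Sec16b, below an FPKM of 1 in every library, were too low to meet it. Rfwd2, a ubiquitin ligase gene expressed at 11.8 to 14.8 FPKM in the 4 libraries, differed between the fractions by -0.17 at P1 and 0.11 at P4. Pappa2 reached at most 0.727 FPKM, in P1 pHes1_ENC. Sec16b did not exceed 0.0878 FPKM. BC026585 was higher in pHes1_EPC at both ages, by 1.02 and 1.68. Within the pair, Astn1 was above Fam5b in P1 pHes1_ENC, P1 pHes1_EPC and P4 pHes1_ENC, and Fam5b was above Astn1 in P4 pHes1_EPC (15.9 against 13.2 FPKM).

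**Figure D4:**
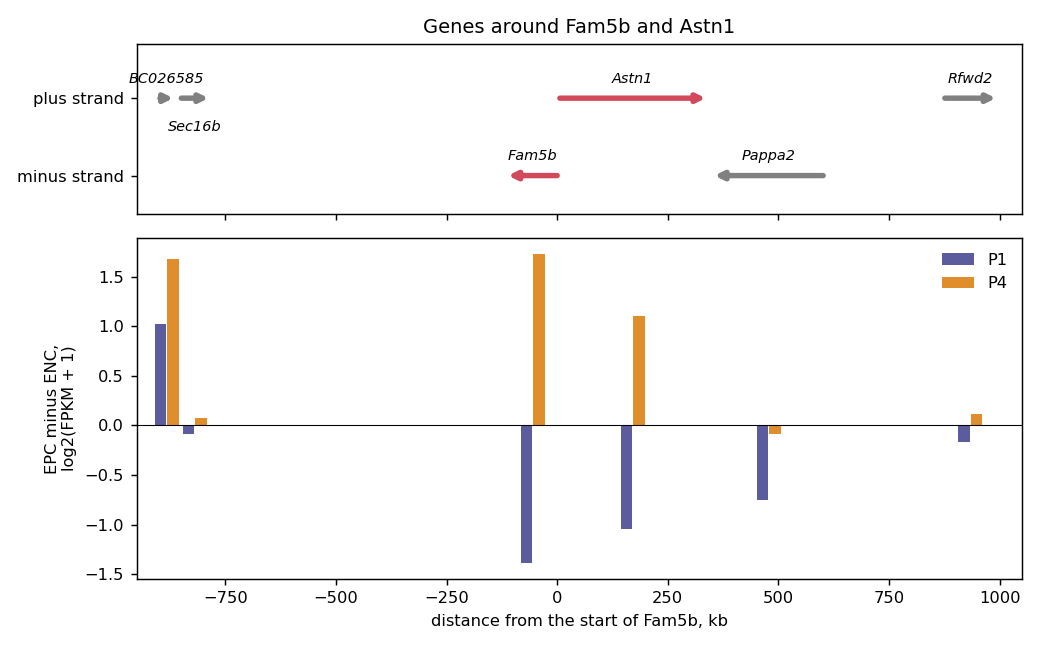
Upper panel, position and direction of Fam5b, Astn1 (red) and the nearest genes on either side (grey), in kb from the start of Fam5b; lower panel, difference of log2(FPKM + 1), pHes1_EPC minus pHes1_ENC, at P1 (violet) and P4 (orange). Bars below 0 at P1 and above 0 at P4 with a size over 1 are seen for Fam5b and Astn1, chosen for this. They are seen for no neighbor, and 0.124% of all genes meet the rule.

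Close relatives of the 8 genes, which were not chosen by the rule, were read beside them. None of the 8 paralogs and host genes met the rule, against 0.124% of all genes. With so small a share, a count of 0 in a short list says little about a family. The same share stands beside the counts of the lists that follow. At P4, 1 of the relatives, Fam5c, was more than 2-fold higher in pHes1_EPC, against 2150 of the 12941 genes that reached an FPKM of 1. Fez2 differed by 0.26 at P1 and 0.89 at P4, and Arl4a by -0.03 and -0.69. Arl4d (-1.74 and -1.38) and Ankrd33 (-2.36 and -2.05), the paralog of Ankrd33b, were lower in pHes1_EPC at both ages.

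Among the relatives of the chromosome 1 pair, Astn2 and Dbc1, the gene also called Fam5a or Brinp1, came nearest to the P1 side of the pattern. Astn2 measured 6.16 and 0.832 FPKM in pHes1_ENC and pHes1_EPC at P1, and 1.24 and 0.749 at P4. Dbc1 measured 4.65 and 0.448 at P1, and 0.885 and 0.623 at P4. Both had lower values in pHes1_ENC at P4 than at P1, as Astn1 and Fam5b had, but were not higher in pHes1_EPC at P4 (differences of -0.36 and -0.22).

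Nicotinic acetylcholine receptors are pentamers of alpha and beta subunits, and Chrna4 commonly assembles with Chrnb2. Of 16 subunit genes, 6 reached an FPKM of 1 in any library, and only Chrna4, which was chosen by the rule, met it. Chrnb2 measured 15.0 and 0.846 FPKM in pHes1_ENC and pHes1_EPC at P1, and 8.02 and 1.69 at P4. Chrna3 measured 24.3 and 3.21 at P1, and 10.7 and 7.16 at P4, and Chrnb4 21.4 and 2.78 at P1, and 33.7 and 8.47 at P4. These 3 subunits were higher in pHes1_ENC at both ages. Chrna4, chosen for it, was the single expressed subunit gene more than 2-fold higher in pHes1_EPC at P4, against 2150 of the 12941 genes that reached an FPKM of 1. Chrna5 differed by -0.93 and -1.51, and Chrnb1 by -0.08 and 0.08.

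Genes that act with the others were described in the same way. Of 9 kinesin-1 and Fez1 partner genes, 8 reached an FPKM of 1, with median differences of -1.74 at P1 and -0.48 at P4. Among them, 6 were more than 2-fold lower in pHes1_EPC at P1 but none was more than 2-fold higher at P4. Of the 12941 genes that reached this FPKM, 1483 and 2150 were. Kif5c, a kinesin-1 heavy chain, came closest to Fez1, with 33.1 and 9.12 FPKM at P1, and 4.81 and 6.81 at P4.

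For the partners of Begain, 15 of the 18 postsynaptic scaffold genes reached an FPKM of 1, and their median difference was -0.36 at P1 and 0.10 at P4. Dlg4, which encodes the scaffold PSD-95, was lower in pHes1_EPC at both ages, at 39.8 and 10.5 FPKM in pHes1_ENC and pHes1_EPC at P1, and 59.5 and 15.3 at P4. Dlgap3 was higher in pHes1_EPC at both ages (1.20 and 1.92). None of the 15 met the rule. The 11 Arf-like and cytohesin genes, set beside Arl4c, had medians of -0.19 and 0.13, and none of them met it. As 0.124% of all genes met the rule, neither count sets these lists apart from other genes.

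Markers of the cells that the fractions could hold were read beside the 7 genes. Hes1 measured 16.6 and 104.5 FPKM in pHes1_ENC and pHes1_EPC at P1, and 3.59 and 93.5 at P4, and Hes5 64.8 and 282 at P1, and 16.3 and 324 at P4. Median differences were 2.03 at P1 and 3.77 at P4 for 15 Müller glia markers, 1.91 and 3.26 for 13 progenitor markers, and -3.15 and -2.30 for 10 rod markers. These lists therefore kept their side at both ages, whereas the median of the 7 genes went from -1.31 to 1.43. The FPKM of the genes analyzed summed to 277437 to 372014 in the libraries, with the largest sum in P4 pHes1_EPC.

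Of the marker lists, that of 12 neurogenic progenitor markers had a median below -1 at P1 and above 0 at P4, and went from -2.05 to 0.39. Of the 12, 2 met the rule, Neurog2 and Olig2, and 5 were more than 2-fold higher in pHes1_EPC at P4. Of the 12941 genes that reached an FPKM of 1, 27 met the rule and 2150 were more than 2-fold higher in pHes1_EPC at P4. Neurog2, a proneural transcription factor, measured 74.3 and 19.3 FPKM at P1, and 13.2 and 66.7 at P4. Olig2 measured 27.6 and 5.17 at P1, and 5.50 and 20.9 at P4. Dll1, a Notch ligand, measured 49.5 and 48.7 at P1, with no difference beyond 2-fold, and 13.1 and 89.9 at P4. Atoh7, Insm1 and Neurod4 were more than 2-fold lower in pHes1_EPC at both ages. Btg2 (-2.33 and -0.78) and Gadd45a (-1.85 and -0.51) were also lower at both, so the list did not move as a whole. Summed over the list, the FPKM in pHes1_ENC was 1556 at P1 and 1231 at P4, and that in pHes1_EPC 822 and 1348. The largest single part of the pHes1_EPC sums was Hes6, at 456 and 635, which differed by 0.07 between the fractions at P1. The part of these cells in the values of the 7 genes was not tested.

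Genes of postmitotic neurons had a median below 0 at both ages. Over 24 such genes it was -2.33 at P1 and -0.74 at P4, with 20 and 9 of them more than 2-fold lower in pHes1_EPC. More than 2-fold lower at P1 and P4 were 1483 and 1184 of the 12941 genes that reached an FPKM of 1. Of the 24, only Mapt, which encodes the axonal protein tau, met the rule (32.3 and 3.14 FPKM at P1, 4.92 and 14.4 at P4). Uchl1 went from -0.90 to 0.84 without passing either threshold, and Syt1 stayed at -2.23 and -2.32. Over 10 amacrine markers the median was -3.58 and -1.13, and none met the rule, although Gad2 (-1.90 and 0.77) and Pax6 (-0.95 and 2.12) changed sign. Their summed FPKM, over the 12 markers listed, fell in pHes1_ENC from 613 to 167. The largest single part of that fall was Pax6, which progenitors also express, at 246 and 28.3. Tcfap2a measured 59.9 and 2.51, Tcfap2b 109 and 7.93, and Gad1 16.2 and 1.17. From P1 to P4, 8 of the 10 became more than 2-fold lower in pHes1_ENC, against 1297 of the 12941 genes that reached an FPKM of 1. Slc6a9, a glycine transporter gene, was higher (19.1 and 62.6). In pHes1_EPC the sum was 148 at P1 and 161 at P4, most of it again Pax6. Slc6a9 and Meis2 were higher at P4 there by 2.03 and 1.33 while none was more than 2-fold lower, against 560 of those 12941 genes. The part of these cells in the values of the 7 genes was not tested.

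**Figure D5:**
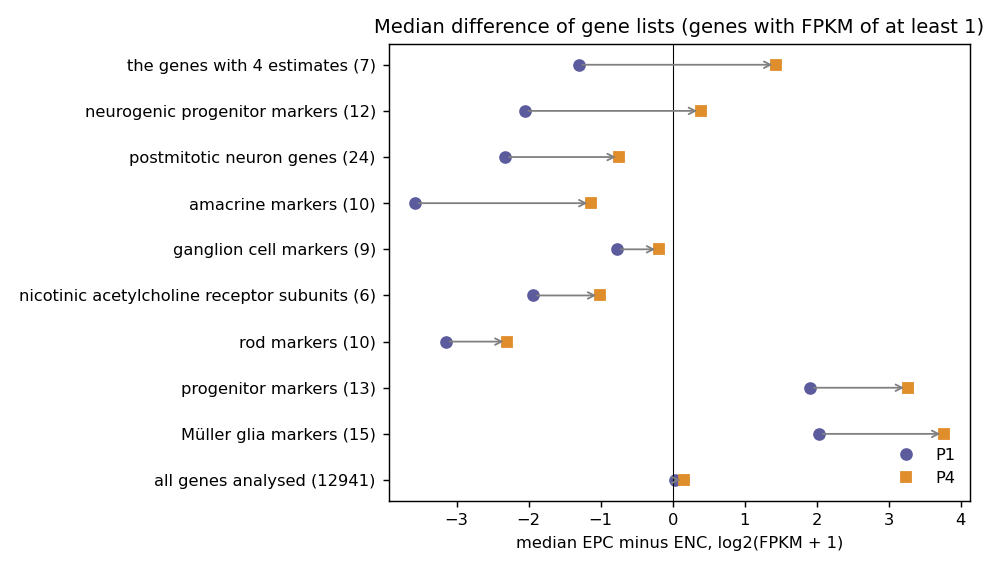
Median difference of log2(FPKM + 1), pHes1_EPC minus pHes1_ENC, at P1 (circles) and P4 (squares) for the 7 genes and for marker lists, over genes with an FPKM of at least 1 (number in brackets). The 7 genes, chosen for this, pass from -1.31 to 1.43; of the marker lists shown only the neurogenic progenitor markers also cross 0, from -2.05 to 0.39.

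Of the 19 other genes that met the rule, 17 were more than 2-fold lower at P4 in pHes1_ENC and 11 were more than 2-fold higher in pHes1_EPC. The change was larger in pHes1_ENC for 16. Of the 12941 genes that reached an FPKM of 1, 1297 were lower and 911 higher to this extent. The rule chose these 19 genes by the same values, so the counts are a description and not a test. The 5 with the highest FPKM were Gadd45g, Dpysl4, Neurog2, Lmo4 and Cdkn1c. Gadd45g, a stress and differentiation gene, and Cdkn1c, the cyclin-dependent kinase inhibitor p57, differed from the 7 genes in their shape. They did not fall in pHes1_ENC (0.21 and 0.13) and rose in pHes1_EPC by 2.84 and 2.52. Lmo4, a transcription cofactor, lay at the other end and fell by 2.50 in pHes1_ENC with a change of 0.03 in pHes1_EPC.

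The profile over the 4 libraries was compared by Euclidean distance between log2(FPKM + 1) values centered on each gene's mean, among the 8404 genes that reached an FPKM of 10 in any library. Of the 7 genes, Begain was nearest to their mean profile, at 0.23, and Fam5b was farthest, at 0.90. The nearest genes outside the set were Dpysl4 (0.33), a member of the collapsin response mediator family of growth cone proteins, Dner (0.55), Stmn4 (0.57), a stathmin that binds tubulin, Gm13889 (0.59) and Fam110b (0.60). Dpysl4 measured 135 and 66.0 FPKM in pHes1_ENC and pHes1_EPC at P1, and 48.7 and 158 at P4, and met the rule, as did Stmn4. Dner, Gm13889 and Fam110b missed it at 1 age each, with 0.89 at P4 for Dner and with -0.70 and -0.49 at P1 for Gm13889 and Fam110b.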

How the data were processed

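RNA-seq covered pHes1_EPC and pHes1_ENC at 2 ages, with 1 library in each group. The authors used TopHat 2.0.8b to align 36-base single-end reads to the NCBI37/mm9 genome, and deposited gene FPKM from Cufflinks 2.1.1 with a 95% interval and a status. Read counts were not used here.

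Computations used Python 3.11.15, numpy 2.4.6, pandas 2.3.3 and matplotlib 3.10.9. The tables list 23021 gene lines in different orders and were joined on identifier and locus. Small RNAs (796 lines) were left out by symbol, and 234 symbols with more than 1 line were represented by their line of highest FPKM, so that 21828 genes remained. Differences are of log2(FPKM + 1), and ratio ranges divide the lower limit of one interval by the upper limit of the other, and the reverse. The procedures were tested on simulated data.

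The genes and lists were chosen with earlier results of these data known. Also named were paralogs, expressed nicotinic subunits, Hes1, markers of high FPKM, the 5 other genes of highest FPKM that met the rule, genes nearest the thresholds and the 5 nearest in profile. Hes5, Hes6, Olig2, Mapt, Kif5c, Dlgap3, Dlg4, Gad1, Gad2, Slc6a9, Meis2, Uchl1, Syt1, Cldn5, Atoh7, Insm1, Neurod4, Btg2, Gadd45a and the neighbors of Fam5b were named after their values were seen. Some genes that these rules name are not reported here. The alternatives were other pseudocounts, 3 scalings, summed lines, an FPKM minimum, status OK and separate intervals.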

Additional observations from a re-analysis of the deposited data

Results flagged for a closer look

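These values are P4 minus P1 differences of pHes1_EPC minus pHes1_ENC in log2(FPKM + 1). They cover the 7 genes, the 5 others of highest FPKM that met the rule and those nearest in profile that met it. Genes of the opposite exchange with status OK in every library are added. Other genes named above that met the rule are not listed, among them Mapt (-3.01 at P1 and 1.38 at P4), Olig2 (-2.21 and 1.75), Flrt3, Hunk and 4833424O15Rik. With 1 library a group the difference between ages was not tested, and the 7 genes of the set were chosen for it.

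In the set the move was 3.63 for Nnat, 3.29 for Fez1, 3.12 for Fam5b, 2.71 for Arl4c, 2.62 for Begain, 2.47 for Chrna4 and 2.15 for Astn1. Outside it, Neurog2 moved by 4.14, Stmn4 by 3.43, Dpysl4 by 2.70, Gadd45g by 2.63, Lmo4 by 2.53 and Cdkn1c by 2.39. In the opposite direction the move was -3.58 for A730008H23Rik, whose FPKM in P4 pHes1_EPC was 5.55e-05, and -2.34 for Klf9.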

How the results depend on the processing

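No paired analysis was possible because each group held 1 library. No difference between the fractions within an age, and no change within a fraction, turned its direction for the 7 genes under the other pseudocounts, scalings or summed lines. Comparing P4 pHes1_EPC with P1 pHes1_ENC, a comparison repeated after seeing the data, Nnat turned from 0.08 to -0.34 with the same total, -0.15 with median-of-ratios scaling and -0.39 after quantile normalization. The alternative values of all 8 genes were set against the range that the Cufflinks limits of the 2 libraries compared allow on either side. Of them, 141 moved by less than this and 51 by more. Summing lines left every value of the 8 genes as it was, so those values could only count as less. Values that rest on the failed estimate of Ankrd33b are included. The median P4 difference, 1.43, became 1.71 with a pseudocount of 0.1, 1.74 with 0.01 and 1.12 after quantile normalization. The median change in pHes1_ENC, -1.80, became -2.07 and -2.10 with these pseudocounts, and that in pHes1_EPC, 0.78, became 0.49 with FPKM rescaled to the same total. The number of genes that met the rule rose from 27 to 80 and 289 with pseudocounts of 0.1 and 0.01, which let in genes of low FPKM. With the same total, 21 genes met it (19 of them among the 27), with median-of-ratios scaling 21 (21 shared), and after quantile normalization 18 (17 shared).

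All 8 genes met the rule with either pseudocount, and 6 did with the same total or quantile normalization, where Astn1 and Chrna4 were lost. With median-of-ratios scaling 7 did (Astn1 lost), and with status OK required 7 (Ankrd33b lost). Without replicates the error between animals was not measured.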

Other observations

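The medians of marker lists for other cells in the retina kept their sign at both ages. Over 8 bipolar markers the median difference was -0.09 at P1 and -0.42 at P4, over 7 cone markers -2.03 and -1.50, over 9 ganglion cell markers -0.77 and -0.19, and over 5 horizontal cell markers -1.92 and -1.23. Red cell markers were higher in pHes1_ENC at both ages, where their FPKM summed to 214 (P1) and 514 (P4), against 0.857 and 8.69 in pHes1_EPC. Microglia markers summed to 2.70 to 14.1 FPKM in the libraries. Of the vessel markers, Cdh5 was listed at 0 in both P4 libraries, and Pecam1, Tie1 and Tek reached at most 0.14, 0.0321 and 0.0409 FPKM. Flt1 differed by 0.69 at P1 and 1.12 at P4 and Pdgfrb by 0.68 and 1.22, with at most 1.41 and 1.68 FPKM. Kdr, which retinal progenitors also express, measured 46.9 and 12.0 in pHes1_ENC against 209 and 189 in pHes1_EPC. Cldn5, an endothelial tight junction gene, measured 16.3 and 3.49 FPKM in pHes1_ENC and pHes1_EPC at P1, then 2.59 and 4.06, a difference of -1.95 at P1 and 0.50 at P4 with a change of -2.27 in pHes1_ENC.

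Of 5 genes for calcium pumps and their regulators, which were listed beside Nnat because it resembles phospholamban, 1 reached an FPKM of 1, Atp2a2. It differed by 0.17 at P1 and -0.10 at P4.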
